A study of Mus musculus with 27 samples.

Results

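Mouse thyroid gland organoids (mTGOs) irradiated with 7 Gy and collected on day 11 of culture were compared with unirradiated organoids collected on day 7. The comparison takes every library of those groups, by the day and dose in the column names, and so uses 6 of the 27 libraries of the series, 3 in each group. Its question was whether irradiated organoids, if their course in culture were delayed, resembled younger controls, and which genes did not. The unirradiated libraries of day 5 and day 11, 3 of each, gave the ends of the normal course. In the whole series, 9 groups of 3 libraries covered days 5, 7 and 11 without irradiation and days 7 and 11 after 2, 4 or 7 Gy.

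All groups were grown from thyroid tissue of C57BL/6 mice aged 8 to 12 weeks. Female mice were used and the tissue was dissociated mechanically and enzymatically. Cells grew in Matrigel, a basement membrane gel, under DMEM/F12 medium with B27, GlutaMAX, the growth factors EGF and FGF2 and the kinase inhibitor Y27632, which the controls received too. The irradiated group received a single photon dose of 7 Gy on day 5 and was collected on day 11, whereas the unirradiated groups received 0 Gy. Each column carries 1 of 3 culture identifiers, mTG11, mTG12 and mTG14, and every group holds each of them once. The labels number the mice 1 to 3 and the design text speaks of 4 mice, and neither could be matched to the culture identifiers. The cultures therefore stand as replicates. Each p-value sets a difference between groups against the spread that remained among the 12 libraries of the fit. The culture is a block in the test, so differences in level between cultures are taken out. Values are given in the order mTG11, mTG12, mTG14 throughout.

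Ionizing radiation breaks DNA, and the transcription factor p53 then induces genes such as Cdkn1a that stop the cell cycle. A cell that leaves the cycle loses the transcripts of DNA replication and mitosis, whether it does so after damage or as it matures. Irradiated epithelia are also known for transcripts of the type I interferon response, which include the antigen presentation genes of MHC class I.

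In the libraries compared, the total was 5723150, 5557026 and 3661836 counts for 7 Gy day 11 and 3838187, 3772966 and 3886276 for unirradiated day 7, so the irradiated libraries of mTG11 and mTG12 were the deepest. Levels are given in CPM, the counts of a gene scaled to the usual common library total, and floors cover counting error only. The intervals of differences between groups come from the edgeR fit, which also takes in the spread between replicate libraries. The reads come from the 3′ ends of transcripts (Smart3SEQ), so CPM needs no correction for transcript length. No pair of replicates differed by less than sampling noise, the smallest chi-square per degree of freedom being 3.62 over 12 pairs. Of the genes that define thyroid follicular cells, Slc5a5, Tshr, Iyd and Dio1 had too few counts to be tested, and Tg, which encodes thyroglobulin, stood at 1.30, 2.38 and 1.54 CPM on day 7 and 0.699, 4.68 and 1.36 CPM in the irradiated organoids. The basal keratin transcript Krt5, at 4465, 4839 and 4570.0 CPM on day 7, was in contrast among the abundant ones, so few defining transcripts of the labelled tissue were present. In bulk RNA, fewer cells of a type and less RNA per cell cannot be told apart.

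Of 19703 genes tested, 3608 (18.3%) differed between 7 Gy day 11 and unirradiated day 7 at an adjusted p under 0.05 in edgeR's quasi-likelihood test with the culture as a block. Of these, 1858 genes (9.43%) were higher in the irradiated organoids and 1750 (8.88%) were lower, and 800 of the higher and 506 of the lower ones differed by at least 2-fold. In 6132 of the 19703 genes the CPM of the 2 groups did not overlap, and 3266 of these were called, so lack of overlap alone was common. Without all libraries of mTG11 the number of called genes was 2099, and without those of mTG14 it was 2118. Against unirradiated organoids of the same day 11, the irradiated ones were higher for 727 genes (3.69%) and lower for 506 (2.57%), 1233 in all, and unirradiated day 11 differed from day 7 in 4825 genes. The 3 comparisons share libraries in pairs, so their counts are set side by side only. Over the 9569 genes with a mean of at least 10 CPM, the 95% interval of the difference lay within 1 log2 unit of day 7 for 88.6% and within 1 log2 unit of unirradiated day 11 for 94.6%.

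The genes that change with age in culture were taken from days 5 and 11 without irradiation, in a separate fit of 6 libraries of which none belongs to the comparison, although all come from the same cultures. In that fit 2086 genes rose and 1599 fell by at least 2-fold. Of the rising genes, 867 (41.6%) were higher in 7 Gy day 11 than in day 7 and 42 (2.01%) were lower, with a median log2 difference of 0.62. Among the falling genes, 647 (40.5%) were lower and 14 (0.876%) were higher, with a median of -0.55, and without the mTG11 libraries the number lower was 406. The 16018 other genes were called higher in 6.1% and lower in 6.62%. Across the 3685 age-dependent genes, the log2 difference of the comparison followed the log2 change from day 5 to day 11 with a Spearman correlation of 0.723 and a Pearson correlation of 0.719. This is a description across genes, which are not independent replicates.

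A position in culture age was then given to each library, on a scale where 0 is the mean of unirradiated day 5 and 1 that of unirradiated day 11, with the genes of the scale chosen from the other 2 cultures only. Unirradiated day 7 libraries stood at 0.515, 0.446 and 0.459, and the irradiated day 11 libraries at 0.923, 0.753 and 0.849. Unirradiated day 11 libraries stood at 1.06, 0.902 and 0.978. Every irradiated day 11 library was thus beyond every day 7 library, by 0.408, 0.307 and 0.390 in its own culture, and short of the unirradiated day 11 library of its culture, by -0.133, -0.150 and -0.129. The means were 0.473 ± 0.037 for day 7, 0.841 ± 0.085 for 7 Gy day 11 and 0.979 ± 0.077 for unirradiated day 11 (SD, n = 3 each), so the irradiated and unirradiated day 11 groups overlapped when cultures were not matched. The 7 Gy libraries of day 7 had a mean of 0.534 ± 0.060 (SD, n = 3), and each lay beyond the unirradiated day 7 library of its culture, by 0.078, 0.027 and 0.078.

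Distances over all genes gave the same order. Over the 9569 genes with a mean of at least 10 CPM, the root mean square (RMS) difference in log2(CPM + 1) within a culture was 0.610, 0.534 and 0.603 between 7 Gy day 11 and unirradiated day 7. Between 7 Gy day 11 and unirradiated day 11 it was 0.386, 0.422 and 0.374, and between 7 Gy day 11 and unirradiated day 5 it was 0.948, 0.815 and 0.936. The irradiated organoids were nearer to their age-matched controls than to the younger ones in all 3 cultures. Between different cultures of 1 group the distance averaged between 0.327 and 0.333, a value that includes the differences between cultures and so is no reference for distances within a culture.

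**Figure D1:**
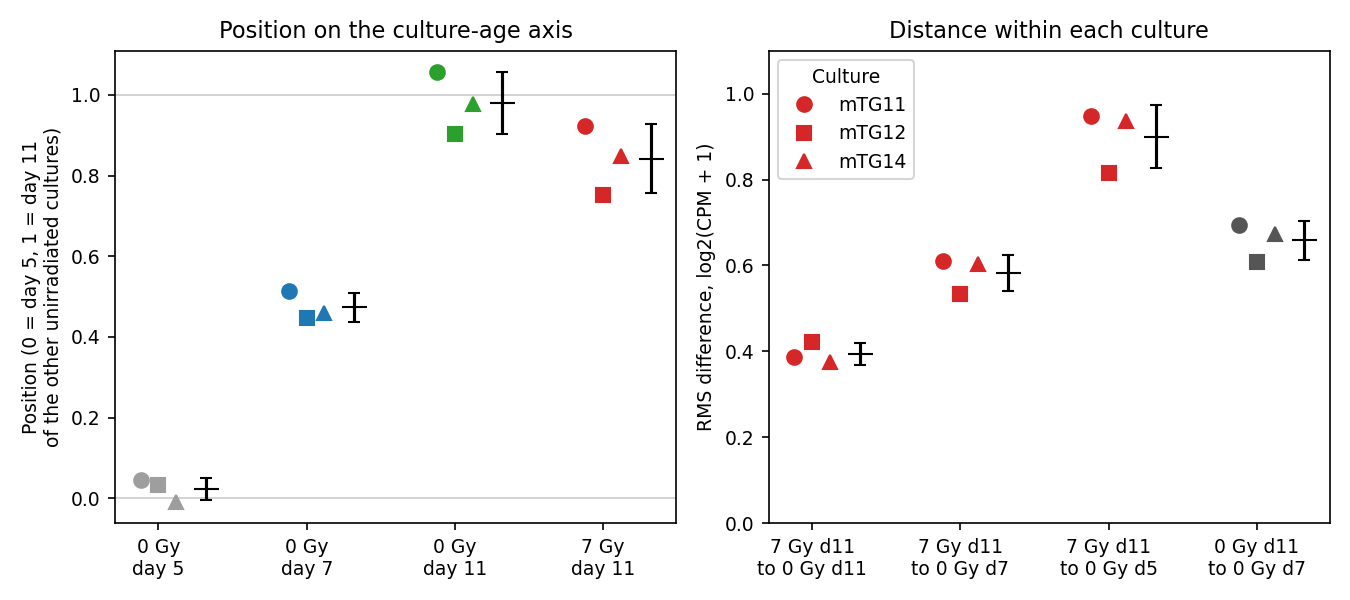
Position in culture age (left, 0 for unirradiated day 5 and 1 for unirradiated day 11) and RMS difference in log2(CPM + 1) within cultures (right), each point 1 library or 1 pair of libraries of a culture and each bar the mean with its SD. The irradiated day 11 libraries lie between 0.753 and 0.923, beyond the day 7 libraries, and their distance is smallest to unirradiated day 11.

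Single genes were sorted by their place relative to the unirradiated days. In 118 genes (0.599%) 7 Gy day 11 was higher than all 3 unirradiated days and in 8 (0.0406%) it was lower, each difference passing at the same time (634 genes in either direction had an unadjusted p under 0.05). Without the mTG11 libraries the former number was 51, without mTG14 it was 67 and without the irradiated mTG11 library alone it was 66. The number lower was at most 5 when any 1 culture, or any 1 library of the 2 groups compared, was left out. Libraries of day 5 and unirradiated day 11 were not left out singly. In 145 genes the irradiated level lay between days 7 and 11 and differed from both, being higher than day 7 in 31 (0.157%) and lower in 114 (0.579%). These numbers rested on all 3 cultures, since without mTG11, mTG12 or mTG14 the higher ones numbered 1, 18 and 3 and the lower ones 21, 58 and 15. The younger level, with the interval against day 7 within 1 log2 unit and a difference from unirradiated day 11 of at least 2-fold, held for 86 genes (0.436%), or 54 without the mTG11 libraries. The younger level is a limit on size and not on the call, and 22 of the 86 also differed from day 7, of which 5 were between the days. The age-matched level, defined in the reverse way, held for 473 genes (2.4%), of which 297 were higher and 176 lower than day 7 and 53 also differed from unirradiated day 11.

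Most interferon-stimulated genes were higher than on every day of the normal course. All 35 listed genes were tested, and 35 were higher than on day 7 (background 9.43%), with a median log2 difference of 3.68 against 0.022 over all genes. Against unirradiated day 11, 30 of the 35 were higher, with a median of 1.79, and 30 were higher than all 3 unirradiated days. Isg15, which encodes a ubiquitin-like modifier, had 18.6, 8.75 and 10.7 CPM on day 7, 83.00, 17.3 and 47.3 CPM on unirradiated day 11 and 297, 159 and 235 CPM in the irradiated organoids. No irradiated library overlapped with any unirradiated one. The log2 difference was 4.22 ± 0.23 (SE) from day 7 (edgeR, adjusted p = 3.32e-09) and 2.30 ± 0.17 from unirradiated day 11 (adjusted p = 1.49e-06).

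The gene with the greatest rise by the naming rule was Ifi27l2a, an interferon-inducible gene of the ISG12 family, from 12.2, 2.12 and 7.21 CPM on day 7 to 884, 499 and 631 CPM, a log2 difference of 6.65 ± 0.36 (edgeR, adjusted p = 1.25e-09). On unirradiated day 11 it stood at 59.3, 6.43 and 28.9 CPM, above day 7 in every culture but far under the irradiated level. Ifi44 went from 7.04, 3.45 and 3.60 to 212, 108 and 167 CPM, a difference of 5.14 ± 0.25. Others among the 10 greatest rises were the antiviral synthetase gene Oas2 (5.14 ± 0.50), the helicase gene Ddx60 (4.64 ± 0.47), Trim30a (6.17 ± 0.63), and the paralog groups Apol9a (5.99 ± 0.55) with Apol9b, Ifit3b, and H2-Q7 (6.31 ± 0.57) with H2-Q9, where Trim30a, Apol9a and H2-Q7 had fewer than 10 counts over the 3 day 7 libraries. The paralogs share reads and their own values are uncertain, since H2-Q7 and H2-Q9 had nearly equal counts in every library. Irf7, a transcription factor gene of the pathway, went from 16.4, 7.42 and 6.43 to 209.8, 122 and 169 CPM (4.08 ± 0.24). Oasl1 was the 1 listed gene at the age-matched level, higher than day 7 by 2.41 ± 0.23 but differing from unirradiated day 11 by 0.47 ± 0.18 (adjusted p = 0.15).

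MHC class I genes had the same pattern. Of 18 tested, 16 were higher than on day 7 (median 2.07) and 13 higher than all 3 unirradiated days, while Erap1 and Tapbpl, both of the peptide loading route, did not pass. B2m, the invariant light chain of class I molecules, had 114, 84.9 and 104 CPM on day 7, 304, 179.9 and 220.3 CPM on unirradiated day 11 and 1595, 792 and 1045 CPM after irradiation. The groups did not overlap and the difference was 3.45 ± 0.14 from day 7 (edgeR, adjusted p = 1.18e-09) and 2.23 ± 0.13 from unirradiated day 11. The heavy chain gene H2-K1 went from 208, 156 and 161 to 1158, 595 and 856 CPM (2.27 ± 0.16). Differences from day 7 of 3.15 ± 0.21 for the immunoproteasome subunit Psmb8 and 2.00 ± 0.10 for the peptide transporter Tap1 were past the threshold. The interferon list kept 33 to 35 calls and the MHC list 16 under every alternative. Summed immune cell markers were at 41.5 to 65.5 CPM on day 7, 62.5 to 90.9 CPM after irradiation and 51.0 to 92.7 CPM on unirradiated day 11, with the leukocyte and lymphocyte genes Ptprc, Cd3e, Cd3d and Cd79a too low to be tested. Of the 8 tested, Itgam and Cd68 were higher and S100a8 was lower than on day 7, C1qa and C1qb had no counts after irradiation, and their part in these results was not tested.

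The promoters of these genes are shown because they hold the interferon-stimulated response element (ISRE), the site of the transcription factor complex that interferon activates. The 250 bases before the start of each gene were read from RefSeq on build GRCm38.p6, 5′ to 3′ on the strand of the gene, and capitals mark the core of the element, GAAA, any 2 bases and GAAA, or the reverse complement, TTTC, any 2 bases and TTTC.
Isg15, chr4:156200819-156201068, minus strand: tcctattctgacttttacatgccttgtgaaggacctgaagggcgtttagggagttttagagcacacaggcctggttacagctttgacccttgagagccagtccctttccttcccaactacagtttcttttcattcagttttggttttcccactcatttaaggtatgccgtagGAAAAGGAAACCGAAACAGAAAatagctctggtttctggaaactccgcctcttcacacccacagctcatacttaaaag
Ifit3, chr19:34583279-34583528, plus strand: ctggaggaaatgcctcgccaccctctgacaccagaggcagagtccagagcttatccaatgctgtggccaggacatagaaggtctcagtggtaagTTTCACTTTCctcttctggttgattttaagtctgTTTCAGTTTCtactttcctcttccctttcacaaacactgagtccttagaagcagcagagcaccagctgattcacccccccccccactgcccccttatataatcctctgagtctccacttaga
Ddx60, chr8:61927837-61928086, plus strand: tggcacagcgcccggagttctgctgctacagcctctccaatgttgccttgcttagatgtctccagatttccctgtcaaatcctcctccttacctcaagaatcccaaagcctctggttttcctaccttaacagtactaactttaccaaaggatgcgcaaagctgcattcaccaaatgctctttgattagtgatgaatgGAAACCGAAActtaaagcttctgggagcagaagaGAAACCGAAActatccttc
B2m, chr2:122147437-122147686, plus strand: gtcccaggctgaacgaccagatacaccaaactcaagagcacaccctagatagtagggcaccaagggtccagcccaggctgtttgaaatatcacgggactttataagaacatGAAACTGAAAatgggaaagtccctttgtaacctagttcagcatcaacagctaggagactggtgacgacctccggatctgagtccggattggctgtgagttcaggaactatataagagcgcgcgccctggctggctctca
Isg15 held 3 overlapping matches, Ifit3 and Ddx60 held 2 each and B2m held 1. Of the 118 genes higher than all unirradiated days, 89 had a window in the table and 30 of them (33.7%) held the motif on either strand, as did 12 of 25 interferon-stimulated genes (48%) and 3 of 14 MHC class I genes (21.4%). The share was 3.12% over the 12521 tested genes with a window and 3.46% over all 27025 genes of the table. A match is a description of the letters and not a measured binding site.

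Proliferation genes lay between the younger and the age-matched controls. Of 26 genes of G2 phase and mitosis, 23 were lower than on day 7 (background 8.88%) with a median of -0.76, and 25 were higher than on unirradiated day 11 with a median of 1.195. Of these, 13 were called between both days and 10 were at the younger level, 8 of the 10 being lower than on day 7 as well and 2 counted in both classes. Mki67, the Ki-67 proliferation antigen, had 130.1, 114 and 117 CPM on day 7, 83.9, 77.1 and 65.8 CPM in irradiated day 11 organoids and 24.2, 23.7 and 26.5 CPM in unirradiated ones. The 3 groups did not overlap, with a log2 difference of -0.68 ± 0.11 from day 7 (edgeR, adjusted p = 0.000319) and 1.58 ± 0.13 from unirradiated day 11 (adjusted p = 2.21e-06). Top2a, which encodes the mitotic topoisomerase, went in the same order from 215, 165 and 172 to 109, 107 and 110.1 to 61.9, 51.5 and 59.1 CPM, -0.75 ± 0.08 from day 7 and 0.89 ± 0.09 from day 11. Birc5, encoding survivin of the chromosomal passenger complex, had 77.2, 68.2 and 68.5, then 36.3, 37.6 and 29.4, then 11.4, 9.25 and 10.3 CPM, -1.05 ± 0.10 from day 7. Cenpf, a kinetochore gene at the younger level, differed from day 7 by -0.27 ± 0.14 (adjusted p = 0.2) and from unirradiated day 11 by 1.49 ± 0.17.

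Of 30 genes of G1/S and DNA replication, 15 were lower than on day 7 (median -0.45) and 20 were higher than on unirradiated day 11 (median 0.79), and the number lower than day 7 was 5 without the mTG11 libraries, 7 without those of mTG14, and 9 without the day 7 library of mTG11 or the irradiated library of mTG14. Mcm5, a subunit of the replicative helicase at the younger level, had 49.8, 34.99 and 38.6 CPM on day 7, 24.8, 30.96 and 26.2 CPM after irradiation and 10.5, 11.5 and 14.3 CPM on unirradiated day 11. Its range after irradiation lay under that of day 7 and above that of unirradiated day 11, with differences of -0.59 ± 0.14 (edgeR, adjusted p = 0.00616) and 1.15 ± 0.17, and the former did not pass without the mTG11 libraries or without either of them from the compared groups. The nucleotide synthesis genes Tk1 (-1.05 ± 0.15) and Rrm2 (-0.87 ± 0.13) fell most clearly from day 7, whereas Mcm6 (-0.27 ± 0.10, adjusted p = 0.084) and Rrm1 (0.17 ± 0.10, adjusted p = 0.26) did not pass. In each culture the mean log2 level of a list can be set on a scale from day 7 (0) to unirradiated day 11 (1), and irradiated day 11 had gone 0.371 of the way for the G2 and mitosis list (0.323 to 0.432 over cultures) and 0.355 for the replication list (0.236 to 0.453). The mean log2(CPM + 1) of the G2 and mitosis list was 5.37, 5.08 and 5.08 on unirradiated day 7 and 4.56, 4.46 and 4.44 in 7 Gy day 11, and 4.43, 4.51 and 4.34 in the 7 Gy libraries of day 7, so the list was already under its unirradiated day 7 level on day 7 after 7 Gy, and from there to day 11 it was higher in 2 cultures and lower in 1.

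The promoters of Mki67 and Top2a are shown since genes of mitosis often carry CCAAT boxes, bound by NF-Y, and a cell cycle genes homology region (CHR), bound by the MuvB complexes. Capitals mark CCAAT or ATTGG, and TTTGAA or TTCAAA for the CHR, again in RefSeq windows of GRCm38.p6.
Mki67, chr7:135716380-135716629, minus strand: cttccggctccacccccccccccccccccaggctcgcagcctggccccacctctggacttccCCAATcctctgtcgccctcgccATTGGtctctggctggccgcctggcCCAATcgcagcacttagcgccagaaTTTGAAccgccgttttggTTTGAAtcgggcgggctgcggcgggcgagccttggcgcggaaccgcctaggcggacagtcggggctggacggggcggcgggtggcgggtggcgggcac
Top2a, chr11:99024190-99024439, minus strand: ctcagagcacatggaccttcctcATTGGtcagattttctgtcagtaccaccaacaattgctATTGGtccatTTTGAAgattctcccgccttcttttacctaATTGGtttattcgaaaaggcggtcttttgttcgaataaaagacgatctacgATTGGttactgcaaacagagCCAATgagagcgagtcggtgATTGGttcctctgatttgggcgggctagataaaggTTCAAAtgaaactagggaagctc
Mki67 held 3 CCAAT boxes and 2 CHR matches, and Top2a held 6 and 2. Both motifs occurred together in 8 of 21 genes of the G2 and mitosis list (38.1%), in 15 of 76 genes called between the days and lower than day 7 (19.7%), and in 6.3% of the tested genes with a window. CCAAT alone was common, at 18 of 21 (85.7%) against 40.1%. The short CHR letters occurred in 13.8% of tested promoters, and the ISRE was in 3 of the 76 (3.95%).

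Histone genes are copied into RNA during DNA replication and were examined after their values had been seen. Of 58 genes of core and linker histones tested, 15 were lower (background 8.88%) and 1 was higher than on day 7, with a median of -0.65. Against unirradiated day 11, 18 of the 58 were higher (background 3.69%), with a median of 1.63. Among the 58, 9 were between the days and 3 at the younger level. H2ac12 had 51.6, 29.8 and 41.3 CPM on day 7, 30.01, 23.2 and 23.8 CPM after irradiation and 4.61, 3.95 and 3.55 CPM on unirradiated day 11, so that it differed by 2.64 ± 0.21 from the age-matched and by -0.66 ± 0.12 (adjusted p = 0.00111) from the younger group, which places it both between the days and at the younger level. The linker histone gene H1f5 differed by 2.04 ± 0.26 and -0.49 ± 0.17 (adjusted p = 0.061) in the same order. These genes are near-identical copies and share reads, so single values are uncertain. The libraries read polyadenylated 3′ ends, and how fully these capture histone transcripts was not tested.

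Targets of p53 were at or somewhat past the age-matched level. Of 20, 16 were higher than on day 7 (median 1.01), 5 were higher than on unirradiated day 11 (median 0.32), and 9 were at the age-matched level. Cdkn1a, the inhibitor p21 that halts the cycle, had 223, 247 and 259 CPM on day 7, 446, 468 and 412 CPM on unirradiated day 11 and 447, 542 and 492 CPM after irradiation. Both day 11 groups lay above day 7 and overlapped each other, with a difference of 1.01 ± 0.08 from day 7 (edgeR, adjusted p = 7.12e-07) and 0.12 ± 0.08 from unirradiated day 11 (adjusted p = 0.48). Zmat3, an RNA-binding p53 target, was outside the normal course with 36.2, 34.5 and 39.6 CPM on day 7, 58.3, 67.3 and 52.5 CPM on day 11 without and 75.1, 100.4 and 78.7 CPM with irradiation, 1.19 ± 0.11 from day 7 and 0.48 ± 0.10 from day 11. Pmaip1, the proapoptotic NOXA gene, was the other one. Mdm2, the ligase that degrades p53, rose from 40.7, 40.7 and 28.4 to 82.8, 82.6 and 74.1 CPM (1.12 ± 0.10), and Gdf15 (2.42 ± 0.36) and Eda2r (2.23 ± 0.30) rose more. Phlda3, Bbc3, Rrm2b and Perp did not pass. On the scale of day 7 to day 11 the list stood at 1.33 (1.07 to 1.48 over cultures). After 7 Gy its mean log2(CPM + 1) was 6.11, 6.27 and 5.98 on day 7 and 5.75, 5.98 and 5.78 on day 11. The list was thus higher on day 7 than on day 11 after irradiation in every culture.

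Among 10 inhibitors of cyclin-dependent kinases and D cyclins, 4 were higher (background 9.43%) and 1 was lower than on day 7, the latter near the background of 8.88%. The inhibitor gene Cdkn2b had 73.8, 71.6 and 69.7 CPM on day 7 and 107, 114 and 106 CPM after irradiation, 0.60 ± 0.11 from day 7 and 0.43 ± 0.11 from unirradiated day 11. Ccnd2 rose by 0.78 ± 0.08. Cdkn1b, encoding p27, differed by -0.09 ± 0.09 from day 7 (adjusted p = 0.57) and by -0.50 ± 0.09 from unirradiated day 11.

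**Figure D2:**
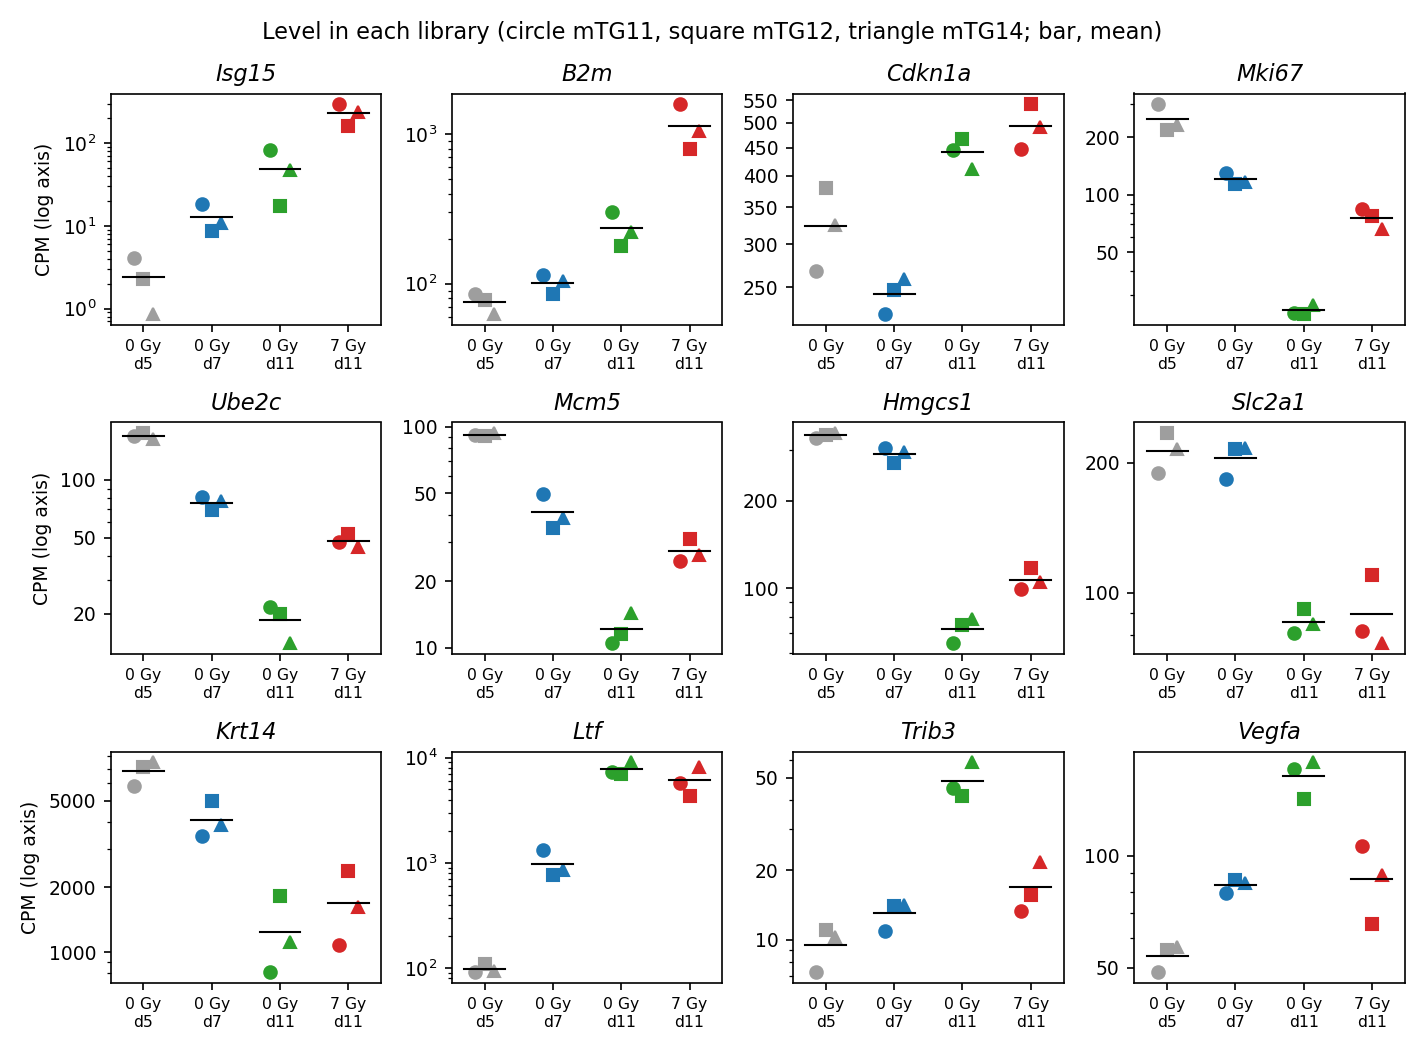
CPM on a log axis of 12 genes in unirradiated organoids of days 5, 7 and 11 and in 7 Gy organoids of day 11, with 1 symbol per culture and a bar at the mean. Isg15 and B2m lie above every unirradiated library, Mki67 and Ube2c lie between days 7 and 11, Hmgcs1 and Krt14 approach and Cdkn1a and Slc2a1 reach the day 11 level, and Trib3 and Vegfa lie nearer to day 7.

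Genes of cholesterol and fatty acid synthesis were lower than on day 7 and most of the way to the age-matched level. Of 27, 24 were lower than on day 7 (median -1.02) and 16 were higher than on unirradiated day 11 (median 0.49), with 11 between both days and 11 at the age-matched level. Hmgcs1, the first committed enzyme of the mevalonate route, had 304, 270.1 and 294 CPM on day 7, 99.3, 117 and 105.1 CPM after irradiation and 64.8, 74.9 and 78.5 CPM on unirradiated day 11. The 3 groups did not overlap, and the difference from day 7 was -1.44 ± 0.09 (edgeR, adjusted p = 2.83e-08). Fdps, farnesyl diphosphate synthase, had 211, 196 and 216, then 64.8, 82.4 and 83.1, then 35.6, 33.2 and 29.9 CPM, -1.45 ± 0.09 from day 7 and 1.17 ± 0.11 from day 11. The demethylase gene Cyp51 differed by -1.16 ± 0.10 and 0.97 ± 0.11. The list had gone 0.622 of the way (0.515 to 0.705). On unirradiated day 7 its mean log2(CPM + 1) was 6.89, 6.62 and 6.80. After 7 Gy it was 6.18, 6.35 and 6.05 on day 7, already lower, and 5.78, 5.94 and 5.87 on day 11.

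Glycolysis genes were lower than on day 7 and near the level of unirradiated day 11. Of 20 genes of glycolysis and hypoxia, 15 were lower and 1 was higher than on day 7 (median -0.86), and against unirradiated day 11 the counts were 2 higher and 1 lower. The glucose transporter gene Slc2a1 had 183, 215 and 217 CPM on day 7, 81.6, 110.1 and 76.5 CPM after irradiation and 80.7, 91.96 and 84.7 CPM on unirradiated day 11, -1.21 ± 0.10 from day 7 (edgeR, adjusted p = 3.92e-07) and 0.03 ± 0.10 from day 11 (adjusted p = 0.94). Lactate dehydrogenase A, Ldha, fell from 1556, 1464 and 1543 to 702, 756 and 659.6 CPM (-1.12 ± 0.07) and Pgk1 by a log2 difference of -1.06 ± 0.07. Both day 11 groups of Slc2a1 overlapped under day 7. Vegfa, the vascular growth factor, was an exception nearer to the younger controls, at 79.5, 85.9 and 84.5 CPM on day 7, 106, 65.7 and 88.8 CPM after irradiation and 171, 142 and 179 CPM on unirradiated day 11. It differed by 0.04 ± 0.14 from day 7 (edgeR, adjusted p = 0.88) and by -0.95 ± 0.13 from day 11 (adjusted p = 0.000393). Adm, adrenomedullin, rose from day 7 by 1.65 ± 0.18. The list stood at 0.927 (0.869 to 1.00). Without irradiation its mean log2(CPM + 1) was 6.21, 6.41 and 6.34 on day 5, and 7.23, 7.25 and 7.31 on day 7. On unirradiated day 11 it was 6.56, 6.67 and 6.48, so day 7 was the highest of the days sampled. After 7 Gy it was 6.45, 6.44 and 6.32 on day 7, already under the unirradiated level, and 6.62, 6.67 and 6.59 on day 11.

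Stratified epithelial genes fell, with a wide spread between cultures. In the cornified envelope list, 15 of 24 tested genes were lower and 1 was higher than on day 7 (median -1.31), and 12 were higher than on unirradiated day 11. Most of the falls that led the naming rule were of epidermal genes. Calm4, a calcium sensor of the epidermis, went from 242, 90.4 and 234 CPM on day 7 to 5.59, 9.18 and 1.77 CPM (-4.91 ± 0.41), Lor, the loricrin gene, from 122, 40.8 and 92.1 to 1.75, 12.2 and 3.28 CPM (-3.73 ± 0.50), and the envelope gene Lce3b from 72.4, 55.9 and 76.4 to 1.14, 5.76 and 1.18 CPM (-4.60 ± 0.40). Lce3a, Lce3e and Lce3f also were among the 10, and these paralogs may share reads. Sprr1b, a cross-linked envelope precursor, had 146, 121 and 124 CPM on day 7 and 4.89, 35.8 and 5.46 CPM after irradiation, and the mTG12 library was the high one, as it was for Sprr3 (457, 302 and 499 then 62.5, 247 and 124 CPM) and Lor. The acyl-CoA synthetase gene Acsbg1 had a log2 difference of -3.12 ± 0.23 and the serine protease gene Tmprss11a one of -3.09 ± 0.31. Gm94, which is on no list, was also among the 10, with 27.4, 11.1 and 21.4 CPM on day 7 and 0.349, 1.44 and 0.273 CPM after irradiation (-4.68 ± 0.58). The list had gone 0.550 of the way, ranging from 0.133 in mTG12 to 0.781.

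Of 14 basal genes, 11 were lower than on day 7 (median -0.53), or 6 without the mTG14 libraries, and 2 were higher than on unirradiated day 11. Krt14 had 3427, 4987 and 3858 CPM on day 7, 1077, 2370.0 and 1620.0 CPM after irradiation and 810.4, 1810.0 and 1116 CPM on unirradiated day 11, -1.34 ± 0.13 from day 7 (edgeR, adjusted p = 3.08e-06) and 0.41 ± 0.13 from day 11 (adjusted p = 0.077). The cultures kept their order in each group, with mTG12 the highest. Its partner Krt5 fell by -0.62 ± 0.07. In the list of suprabasal and stress keratins 6 of 10 were lower and 1 was higher, with 3 lower without the mTG11 libraries, and Krt16 (-2.31 ± 0.29) and Krt6b (-1.65 ± 0.16), keratins of activated epidermis, were between the days. Of 10 genes of simple epithelia, 6 were higher and 1 was lower than on day 7 (median 0.55), the latter near the background of 8.88%. Among the higher ones was Krt7 (1.13 ± 0.16 from day 7 and -0.03 ± 0.16 from unirradiated day 11).

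Secretory genes moved in both directions, 7 of 20 higher and 4 lower than on day 7. Ltf, the antimicrobial lactoferrin, had 1318, 770.2 and 847 CPM on day 7, 5801, 4331 and 8090.0 CPM after irradiation and 7350.0, 6937 and 9086 CPM on unirradiated day 11. It was higher than on day 7 by 2.61 ± 0.17 (edgeR, adjusted p = 7.88e-08) and its difference from day 11 of -0.42 ± 0.17 did not pass (adjusted p = 0.18). The mucin gene Muc20 differed by 2.99 ± 0.30 from day 7 and 0.19 ± 0.19 from day 11. Of the genes named for the age-matched level, the mucin gene Muc21 went from 14.1, 5.57 and 14.9 to 185, 126 and 170.1 CPM, with 141, 79.1 and 162 CPM on unirradiated day 11, and the pantetheinase gene Vnn1 from 16.7, 13.8 and 8.23 to 217, 112 and 130.3 CPM, with 230.3, 101.3 and 114 CPM. Itgam (3.57 ± 0.42), the complement receptor subunit of myeloid cells, Cfb (3.55 ± 0.40), complement factor B, Clca3b (3.47 ± 0.22) and Gm38781 completed that group. At the younger level the rule named Defb14, a beta-defensin gene, the envelope gene Cnfn, Snord13 and Dynap beside the histone genes, and Defb14 and Cnfn differed from day 7 once the mTG12 libraries were left out. Dynap was lower than on day 7 (-0.53 ± 0.16, edgeR adjusted p = 0.035), a call lost in 9 of 19 alternatives.

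In the thyroid list, 11 of 16 genes were tested, 3 were higher and 2 lower than on day 7, and 2 were lower than on unirradiated day 11. The rise was that of the DUOX2 oxidase that makes hydrogen peroxide, used for hormone synthesis in the thyroid and for defence in mucosal epithelia. Duoxa2, its maturation factor, had 0.345, 0.380 and 0.285 CPM on day 5, 3.39, 4.24 and 3.86 CPM on day 7, 83.7, 53.5 and 117 CPM after irradiation and 154, 106 and 149 CPM on unirradiated day 11. The irradiated level differed by 4.42 ± 0.25 from day 7 (edgeR, adjusted p = 1.18e-09) and by -0.76 ± 0.11 from day 11 (adjusted p = 0.000712). Duox2 itself went from 1.95, 3.18 and 1.29 to 39.8, 31.9 and 40.7 CPM, with 82.5, 42.6 and 67.8 CPM on unirradiated day 11 (4.09 ± 0.36 and -0.79 ± 0.15), and both genes were between the days. The paralog Duox1 fell from 23.1, 24.9 and 23.4 to 7.43, 16.4 and 9.56 CPM (-1.12 ± 0.20) and its factor Duoxa1 by -0.96 ± 0.14. The transcription factor gene Nkx2-1 was higher by 0.52 ± 0.17 (adjusted p = 0.042), a call that was lost in 13 of 19 alternatives, among them each one that left out a library or culture, and Foxe1 differed by -0.07 ± 0.15 (adjusted p = 0.81). Summed over the list, 142 to 146 CPM on day 7 became 205 to 274 CPM after irradiation and 272 to 338 CPM on unirradiated day 11. In every culture Duox2 and Duoxa2 together rose by more CPM than the list did. The other members thus summed to less than on day 7 in both day 11 groups.

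Genes of the amino acid stress response were nearer to the younger level. Of 20 targets of the transcription factor ATF4 and genes of amino acid supply, 5 were higher and 2 lower than on day 7, and 9 were lower than on unirradiated day 11. Trib3, a pseudokinase that restrains the response, had 10.9, 14.1 and 14.2 CPM on day 7, 13.3, 15.7 and 21.6 CPM after irradiation and 45.2, 41.8 and 58.6 CPM on unirradiated day 11. The irradiated and day 7 ranges overlapped and the difference was 0.34 ± 0.16 (edgeR, adjusted p = 0.16), against -1.58 ± 0.13 from unirradiated day 11 (adjusted p = 2.88e-06). The mitochondrial folate enzyme gene Mthfd2 (0.46 ± 0.17, adjusted p = 0.081, and -1.07 ± 0.15 from day 11) was at the younger level too. Asparagine synthetase, Asns, was at 0.35 ± 0.13 from day 7 (adjusted p = 0.077) and -0.76 ± 0.12 from day 11, and Atf5 by 0.91 ± 0.15 and -0.67 ± 0.14. The list had gone 0.370 of the way (0.271 to 0.437). The number higher than day 7 was 3 without the mTG11 libraries and 9 without those of mTG12.

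The genes of multiciliated cells, airway-like cells with motile cilia, rose on unirradiated day 11 and less so after irradiation. On unirradiated day 11, 18 of 20 were higher than on day 7, in 7 Gy day 11 there were 6 higher and 1 lower (Myb), and 12 were lower than on unirradiated day 11. Foxj1, the master regulator of motile cilia, had 2.08, 2.65 and 0.257 CPM on day 7, 4.98, 10.3 and 3.55 CPM after irradiation and 26.4, 24.9 and 12.1 CPM on unirradiated day 11. It was between the days, 1.89 ± 0.42 from day 7 (edgeR, adjusted p = 0.00311) and -1.81 ± 0.25 from day 11 (adjusted p = 0.000536). The radial spoke gene Rsph1 was at the younger level with 3.39, 4.24 and 4.12 CPM on day 7, 3.67, 5.76 and 1.91 CPM after irradiation and 11.9, 12.6 and 7.15 CPM on unirradiated day 11. Mcidas, which starts the programme, differed by 0.66 ± 0.78 from day 7 (adjusted p = 0.6) and -2.64 ± 0.52 from day 11. Summed CPM over the list was 18.0 to 28.1 on day 7, 33.0 to 63.0 after irradiation and 81.0 to 160.9 on unirradiated day 11. The counts are low, and the number higher than on day 7 was 3 without the mTG12 libraries and 12 with no filter on low counts. The list had gone 0.359 of the way (0.297 to 0.464).

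**Figure D3:**
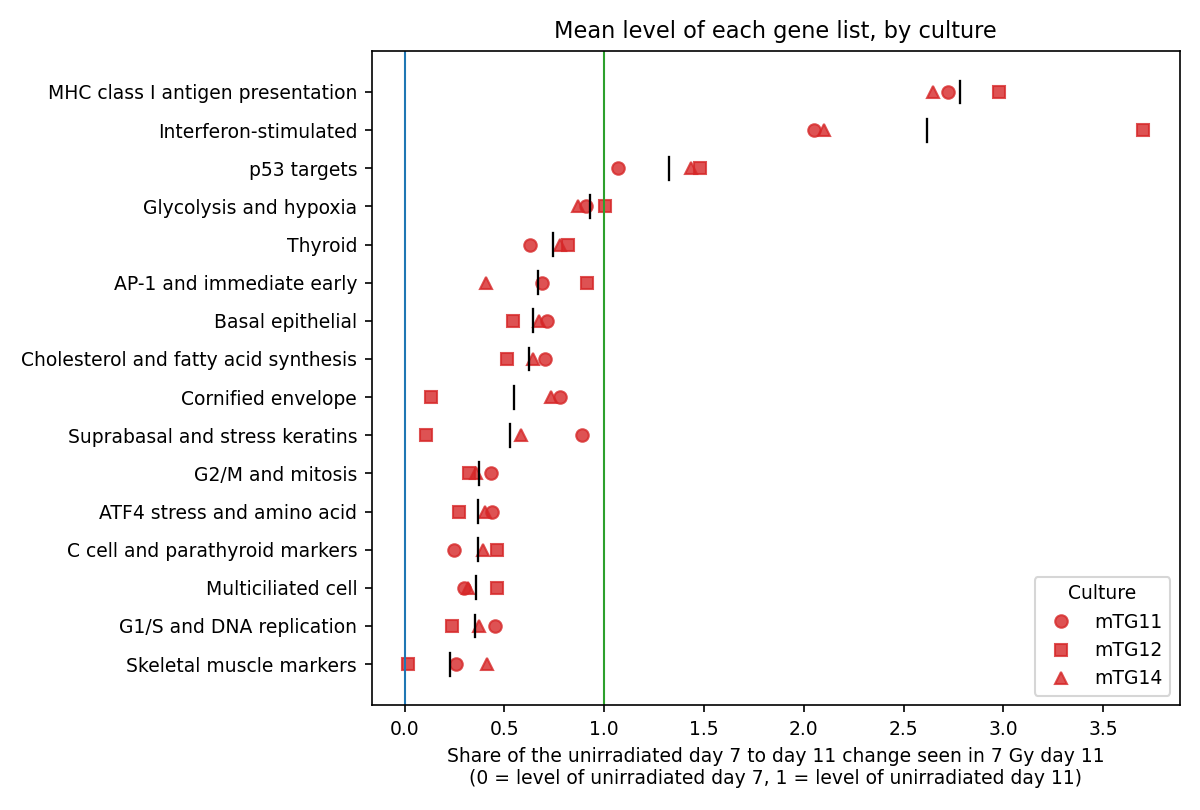
Share of the unirradiated change from day 7 to day 11 reached by 7 Gy day 11, computed in each culture from the mean log2(CPM + 1) of a list (0 for day 7, 1 for day 11), for the 16 lists whose unirradiated change was at least 0.5 log2 units and of 1 sign in every culture. The cell cycle, ATF4, multiciliated, C cell and skeletal muscle lists lie under 0.5 in every culture, glycolysis lies near 1 and the p53, interferon and MHC class I lists lie beyond 1.

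Immediate early genes moved in both directions. Of 21, 11 were higher and 3 lower than on day 7, and 1 was higher and 4 lower than on unirradiated day 11. Jun went from 171, 163 and 205 CPM on day 7 to 600.4, 511 and 344 CPM, at its unirradiated day 11 level of 562, 458 and 381 CPM (1.39 ± 0.15 and 0.02 ± 0.15). Its partner Fos was lower than in both control groups (-1.27 ± 0.16 from day 7 and -1.34 ± 0.16 from unirradiated day 11). Fos had 183, 216 and 211 CPM on day 7, 96.8, 103 and 55.98 CPM after irradiation and 190.5, 249 and 197 CPM on unirradiated day 11. Fosb was at the younger level, with 25.3, 21.7 and 24.7 CPM on day 7, 28.3, 28.1 and 18.3 CPM after irradiation and 79.8, 63.8 and 64.3 CPM on unirradiated day 11. Ccn1, a matricellular target of YAP, rose by 1.96 ± 0.14. Without the mTG11 libraries 7 of the list were higher than on day 7.

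The 8 genes lower than all 3 unirradiated days were Adh7, Aldh1l2, Egr1, Klf10, Tns4, Dgkz, Rbmx and the mitochondrially encoded ND1. Adh7, an alcohol dehydrogenase that oxidises retinol, had 137, 56.7 and 81.3 CPM on day 7 and 44.03, 33.5 and 25.7 CPM after irradiation, -1.36 ± 0.14 from day 7 and -1.05 ± 0.15 from unirradiated day 11. Aldh1l2, of the mitochondrial folate cycle, went from 23.8, 15.02 and 16.1 to 8.44, 6.47 and 9.88 CPM (-1.18 ± 0.17 and -1.42 ± 0.17). Klf10, an early target of TGF-β, differed by -0.63 ± 0.12 and -0.92 ± 0.12. ND1, a subunit of respiratory complex I, went from 1520.0, 1327 and 1377 to 829, 906 and 984 CPM (-0.65 ± 0.07). The 13 mitochondrial protein genes took 1.29% to 1.37% of counts on day 7, 1.12% to 1.28% after irradiation and 1.55% to 1.62% on unirradiated day 11, so the irradiated libraries lay under both, while day 5 was lower still at 1.02% to 1.11%. Their number depended on every culture, as given above.

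A small set of genes ran against the direction of age, taken from day 5 to day 11. Of the 14 that fall with age but were higher than on day 7, Ddit4l, an inhibitor of mTOR signalling, had a mean of 18.1 CPM after irradiation, 5.82 CPM on day 7, 8.85 CPM on unirradiated day 11 and 19.4 CPM on day 5 (log2 difference from day 7 of 1.61). Thbd, encoding thrombomodulin, had means of 7.11, 2.78, 3.39 and 20.0 CPM in the same order (1.32). Others were the stress-responsive Ankrd1, the guidance factor gene Slit2, the exporter gene Abcb1b, Ddias, Trex2, Fhl1, Nav3, Heatr1, Zfp365, Serpinb9b and the near-identical Prl2c2 and Prl2c3. These 14 were named after their values were seen. The unirradiated day 11 means of Ddit4l, Thbd, Ankrd1, Heatr1, Fhl1 and Abcb1b were above those of day 7, and the others were below. Heatr1 after irradiation differed from unirradiated day 11 by 0.08 (edgeR, adjusted p = 0.85). Of the 42 genes that rise with age but were lower than on day 7, 32 had a higher mean on day 7 than on unirradiated day 11. The hypoxia-responsive Ndrg1 had means of 342 CPM after irradiation, 595 CPM on day 7 and 296 CPM on unirradiated day 11, and Bnip3 had 53.1, 110.2 and 46.6 CPM. The alarmin gene Il33 had 158, 240 and 112 CPM, and Krt19 had 844, 1239 and 596 CPM. A2ml1, a protease inhibitor gene of the epidermis, differed from this, with 71.7 CPM after irradiation, 134 CPM on day 7 and 194 CPM on unirradiated day 11, and Fos had a like pattern. The genes of this set were also named after their values were seen.

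Markers of other cells were low and did not follow 1 direction. Skeletal muscle markers, a list added after their values had been seen, summed to 75.2 to 188 CPM on day 7, 57.2 to 148 CPM after irradiation and 23.8 to 41.2 CPM on unirradiated day 11. Of 14, 3 were lower than on day 7, 8 were higher than on unirradiated day 11 and 4 were at the younger level. Without the mTG14 libraries 1 was lower than on day 7, and the part of these transcripts in the other results was not tested. Skeletal actin, Acta1, had 11.2, 36.8 and 30.1 CPM on day 7, 14.2, 28.6 and 21.9 CPM after irradiation and 4.29, 8.31 and 7.97 CPM on unirradiated day 11. Fibroblast markers summed to 281 to 462, 443 to 448 and 341 to 420 CPM in these groups, with 1 of 15 higher and 2 lower than on day 7, near the background. Of 10 C cell and parathyroid markers 4 were tested. The neuropeptide gene Calcb had 22.4, 38.4 and 18.3 CPM on day 7 and 14.5, 12.4 and 8.47 CPM after irradiation (-1.14 ± 0.21). It was still above unirradiated day 11 by 1.86 ± 0.34. The list summed to 20.84 to 41.35 CPM on unirradiated day 7. After 7 Gy it summed to 77.43 to 91.73 CPM on day 7 and 11.74 to 16.95 CPM on day 11. Of the endothelial markers 4 of 10 were tested, and their summed level reached 9.00 CPM at most after irradiation.

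Of 19 chemokine and cytokine genes, 7 were higher (background 9.43%) and 2 lower than on day 7, the latter near the background of 8.88%. Ccl5 (3.76 ± 0.62) and Cxcl2 (1.16 ± 0.19), which attract T cells and neutrophils, were higher than all 3 unirradiated days. The interferon-inducible Cxcl10 had 3.50, 2.88 and 4.10 CPM after irradiation and 3.39, 1.85 and 2.06 CPM on day 7 (adjusted p = 0.48 in edgeR), and Ccl2, a monocyte attractant, was lower than on day 7 (-1.19 ± 0.20). Of 20 TGF-β targets and mesenchymal genes, 6 were higher and 4 lower than on day 7, with 3 higher without the mTG11 libraries and 3 without those of mTG14. Of 18 genes of glutathione and the NRF2 response, 5 were higher and 3 lower than on day 7, with 3 higher without the mTG12 libraries, without either mTG12 library alone or without the day 7 library of mTG14, and 1 lower without the day 7 library of mTG12.

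**Figure D4:**
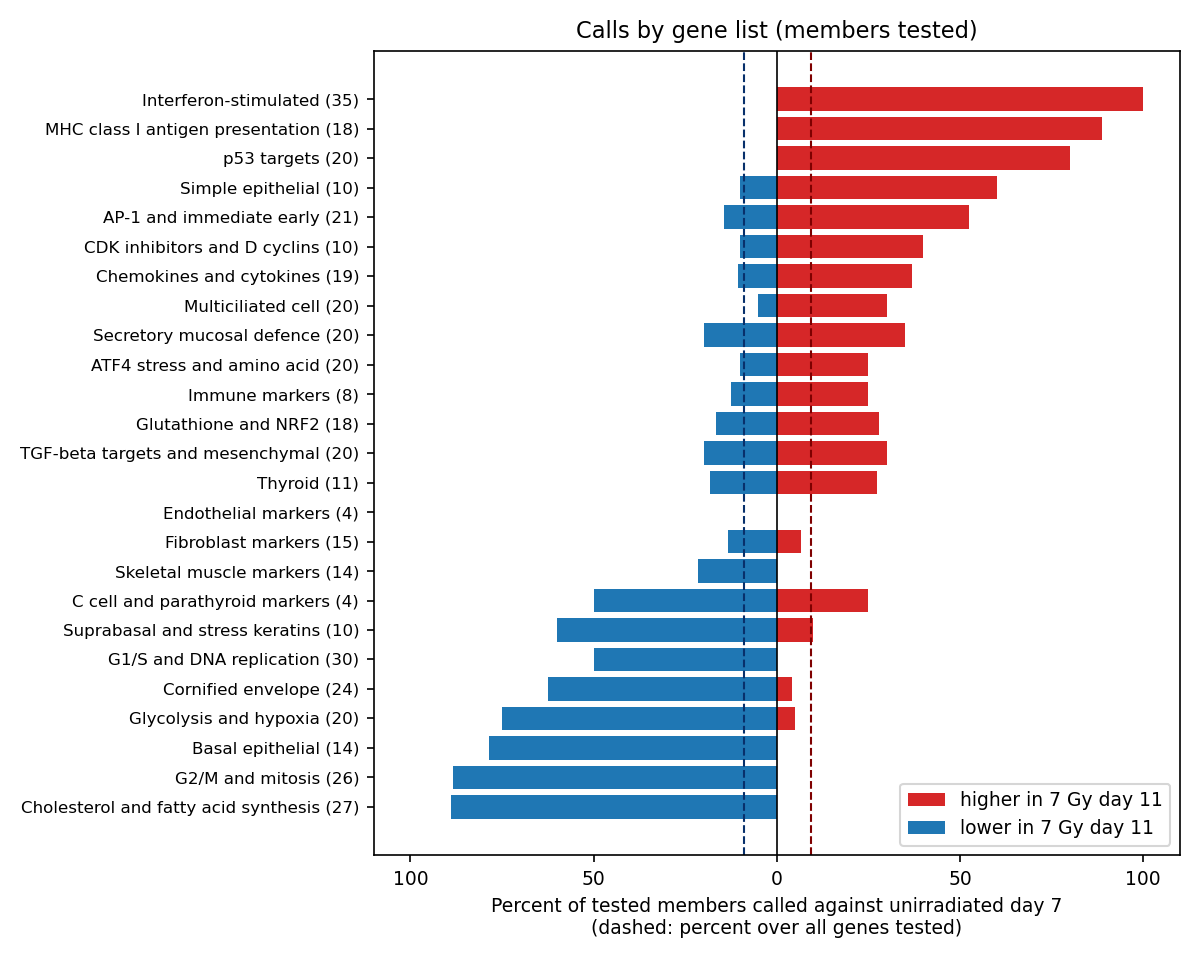
Percent of the tested members of 25 lists that were higher (right) or lower (left) in 7 Gy day 11 than on unirradiated day 7, with dashed lines at the shares over all genes, 9.43% and 8.88%. The interferon, MHC class I and p53 lists reach furthest to the higher side and the cholesterol, G2 and mitosis, and basal lists to the lower side.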

How the data were processed

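Total RNA of 27 mTGO libraries was made into Smart3SEQ libraries, which read the 3′ ends of polyadenylated transcripts, and sequenced as single reads. The authors aligned the reads to GRCm39 and deposited 1 table of estimated counts per gene symbol, not normalized. The submitters' processing notes name STAR and edgeR without versions, while the counter and gene annotation, and whether molecular identifiers were used, are not given in the sources used here. Of the nonzero values 56.3% were whole, the rule behind the fractional ones is not known, and paralogs and overlapping genes are uncertain. The table lists 50559 symbols, of which 15491 had no counts in any library, and each column was placed in its group by the day and dose in its name.

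The planned test needs whole counts, so values were rounded and then tested with edgeR 4.0.16 (R 4.3.3, limma 3.58.1) in 1 fit of 12 libraries (unirradiated days 5, 7 and 11, and 7 Gy day 11) with the culture as a block, TMM factors, genes with at least 10 counts in sum, the quasi-likelihood test, Benjamini-Hochberg adjustment at 0.05 and 95% intervals. The identifiers pair the libraries: deviations from group means correlated within cultures in all 18 pairs (0.134 to 0.430, mean 0.310), and for the libraries compared r was 0.385, 0.211 and 0.363. Between cultures the mean was -0.155, a value fixed by the mean within cultures, because deviations from a group mean cancel out. A gene was outside the unirradiated days when the largest of its 3 p-values passed after adjustment, and the class between days 7 and 11 was added after the data were seen. DESeq2 1.42.0 was an alternative. CPM, positions and distances used Python 3.11.15, pandas 2.3.3 and numpy 2.4.6. The code was tested on simulated counts.

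The 25 gene lists and the comparison were chosen with earlier results of these data known. Named genes were the 10 greatest rises and falls with at least 10 CPM and no overlap, the 8 furthest outside the unirradiated days in each direction, the 6 clearest at the younger and at the age-matched level, and list members. Promoter windows came from RefSeq on GRCm38.p6 and covered 27025 genes. Alternatives were no replicate block, the 6 libraries compared alone, all 27 libraries, other normalizations and filters, and other limits of the classes. Each culture, and each of the 6 libraries compared, was also left out. Chosen after seeing the data were thinning to 2630182 counts and leaving out 109 mitochondrial and ribosomal RNA genes. Libraries of 2 and 4 Gy enter only the fit of all libraries. Some members of the gene lists are not reported here.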

Additional observations from a re-analysis of the deposited data

How the results depend on the processing

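Of 17194 values recomputed for named genes, 16002 kept their side of the threshold (358 of them, uncalled in both, changed sign), 898 lost and 293 gained the call, and 1 reversed: Defb14, at -0.75 against day 7 without the mTG12 libraries (uncalled at up to 0.56 in the others that left out a library or culture). The replicate block mattered most for the strict classes: with no replicate block, 42 genes were higher and 0 lower than all unirradiated days, 0 lay between days 7 and 11 above day 7 and 34 below it, and 49 were at the younger level. With DESeq2, 2184 genes differed from day 7, 1134 higher and 1050 lower, and 15 lay between the days above day 7. With no filter beyond 1 count, 228 genes were higher and 20 lower than all unirradiated days, 96 and 247 lay between the days, and 132 were at the younger level. In the fit of all 27 libraries 5 were lower than all unirradiated days and 20 between above day 7, and after thinning 3 were lower. With the interval limit at 0.5 log2 units, 5 genes were at the younger and 139 at the age-matched level. Without a fold limit on the age list, 1186 of 3749 falling genes were called lower, a share of 31.6% against 40.5%, and 32.6% of rising genes were called higher against 41.6%. Distances were 0.549 (unirradiated day 11 to day 7), 0.328 (7 Gy day 11 to unirradiated day 11), 0.750 (to day 5) and 0.495 (to day 7) with a pseudocount of 5, 0.715, 0.479 and 0.644 (unirradiated day 11 to day 7, then 7 Gy day 11 to unirradiated day 11 and to day 7) with a mean of at least 1 CPM, and 0.354 (7 Gy day 11 to unirradiated day 11) with at least 50 CPM. Leaving out a library or culture gave 2099 to 2948 genes that differed from day 7 (1106 to 1503 higher, 993 to 1457 lower), 406 to 596 falling genes lower, 51 to 119 genes higher and 0 to 5 lower than all unirradiated days, 1 to 26 between above day 7 and 15 to 114 below it, and 54 to 82 at the younger level. No TMM factors, DESeq2 size factors and leaving out mitochondrial and ribosomal RNA genes kept each count they were run for within 1.5 times, as did the 6 libraries alone for the calls against day 7 and those of the age lists, where alone that fit can be made. Fewer libraries and residual degrees of freedom leave less power when a culture is left out, and other causes of these shifts were not tested. With 3 libraries a group, genes of a few CPM were not testable with precision.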

Other observations

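Of the 118 genes higher in 7 Gy day 11 than on every unirradiated day, 47 belonged to a gene list and 71 to none. The latter included further interferon-inducible GTPases, named here after their values were seen. Gbp3, a guanylate-binding protein gene, had a mean of 14.7 CPM after irradiation, 0.781 CPM on day 7 and 2.502 CPM on unirradiated day 11 (log2 difference from day 7 of 4.18 ± 0.45, SE). Igtp had 12.2, 1.57 and 4.58 CPM (2.98 ± 0.44) and Irgm1 had 23.1, 6.08 and 11.9 CPM (1.91 ± 0.21), both of the immunity-related GTPase family. H2-Eb1, a chain of MHC class II rather than class I, had 12.0, 0.689 and 1.80 CPM (4.04 ± 0.56), and Slfn2, a schlafen gene, had 119, 13.4 and 42.1 CPM (3.17 ± 0.19).

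Others of the 71 are known for other roles. Mal, a lipid raft protein of apical transport, had a mean of 2179 CPM after irradiation, 838 CPM on day 7 and 1269 CPM on unirradiated day 11 (1.39 ± 0.10), and was the most abundant of these examples. Abcg1, a cholesterol exporter gene, had 47.6, 6.95 and 16.8 CPM (2.77 ± 0.22). Tnfaip3, an inhibitor of NF-κB signalling, had 31.7, 13.2 and 13.9 CPM (1.25 ± 0.16), so its unirradiated levels on days 7 and 11 were close to each other.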
